A study of Mus musculus with 19 samples.

Results

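The respiratory chain of the mitochondrial inner membrane was described here through the mRNAs of its nuclear-encoded subunits. Members were chosen by gene symbol (Nduf and Sdh with a subunit letter, Uqcr, Cyc1, Cox4 to Cox8 followed by a, b or c, and Atp5, without those marked as pseudogenes), which gave 83 genes of 60567 listed, of which 25896 carry a symbol. They comprise 37 genes of complex I, 4 of complex II, 9 of complex III, 16 of complex IV and 17 of complex V. Names were followed without correction. Ndufa4, counted with complex I by its name, is known as a subunit of complex IV, Cox7a2l is known as an assembly factor of supercomplexes, and Atp5s and Atp5sl are not classical subunits of ATP synthase.

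Electrons from NADH enter the chain at complex I, and those from succinate at complex II. Ubiquinone carries them to complex III, and cytochrome c carries them on to complex IV, where oxygen is reduced. Complexes I, III and IV pump protons, and complex V, the ATP synthase, uses the gradient to make ATP. Complexes I, III, IV and V also hold subunits encoded in mitochondrial DNA. Astrocytes, glial cells of the brain, are known for a strong glycolysis, and they also hold mitochondria.

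The samples were hippocampal cells of male C57bl6 mice aged 9 months, sorted by their GFP fluorescence. All mice had received AAV9 vectors in the CA1 region, with expression driven by gfaABC1D, a promoter derived from the GFAP gene that is active in astrocytes. The vector encoded GFP alone (WT-GFP and APP-GFP) or SOCS3, an inhibitor of the JAK-STAT3 pathway, together with GFP at the same total titer (APP-SOCS3). WT mice were not transgenic. APP mice were transgenic animals that carry, among other changes, a chimeric mouse and human App with the Swedish mutations, and serve as a model of amyloid accumulation. GFP+ cells, named astrocytes here, gave 7 samples for WT-GFP, 4 for APP-GFP and 5 for APP-SOCS3. A further 3 samples were GFP- cells of WT-GFP mice. The study describes them as a mixture of astrocytes the vector had not reached, microglia, neurons and oligodendrocyte precursors. Endothelial and mural markers were also high in them, as given below. Myelin had been removed before sorting. A figure legend of the study counts GFP+ samples as mice, but its methods count samples and say that both hippocampi of a mouse were sorted separately. The labels tie no sample to a mouse. GFP- samples may come from the same mice as GFP+ samples. The *p*-values therefore measure the spread between these samples and may be too small.

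Each sample held 19331876 to 32621917 reads on genes. Genes detected numbered 15575 to 26757 in GFP+ samples and 30807 to 31897 in GFP- samples, and WT-GFP replicates 1, 2 and 3 and APP-GFP replicate 2 lay under 20000. All 12 astrocyte markers listed were higher in WT-GFP GFP+ cells than in GFP- cells, with a median log2 fold change of 3.87, and all 12 microglial, 12 endothelial, 10 mural and 6 oligodendrocyte precursor markers were lower, as were 9 of 12 neuronal and 5 of 6 perivascular macrophage markers. Oligodendrocyte markers were split, with 2 of 8 called higher and 2 lower. Their summed level was 4961 to 7349 in WT-GFP GFP+ cells against 2591 to 3360 in GFP- cells, without overlap. In GFP- cells, endothelial markers summed to 155949 to 248677, mural to 135267 to 178106, microglial to 110520 to 190588 and neuronal to 4351 to 9019. Socs3 was at 13296 to 37750 in APP-SOCS3 (n = 5) against 438 to 1639 in APP-GFP cells (n = 4), and at 10320 to 17689 in GFP- cells. Levels below are normalized mRNA levels (reads per gene after division by the authors' size factor of each sample), given as mean ± SD. Fold changes are differences of mean log2(level + 1), given ± SE with limma.

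To show the kind of sequence that precedes these genes, promoter windows (250 bases before to 50 after a start, from RefSeq, GRCm38.p6) were read for the 69 members that have one. Letters known to be bound by regulators of respiratory genes were searched on both strands. The NRF1 motif (GCGCA, any 1 base, then GCGC) was found in 17 of 69 members (24.6%) and in 7.17% of 17492 protein-coding genes with a window. The YY1 motif AAGATGGCG was found in 8 members (11.6%) and 2.14% of all, the ETS motif ACTTCCG in 10 members (14.5%) and 9.39% of all, and the SP1 motif GGGCGG in 28 members (40.6%) and 49.2% of all. No motif contains another, although neighbouring NRF1 and SP1 matches can share bases. A match says only that the letters are there.

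The 200 bases before the start are printed 5′ to 3′ on the strand of the gene for the 4 members that were higher in astrocytes, as described below, with the smallest *p* among those whose 200 bases hold the NRF1 motif (Ndufs5 and Sdhd) or the ETS motif (Atp5f1 and Ndufs8). Capitals mark the match. Ndufs5 is a complex I subunit (chr4:123718187-123718386, minus strand), Sdhd a membrane anchor of complex II (chr9:50603850-50604049, minus strand), Atp5f1 the b subunit of ATP synthase, named Atp5pb in RefSeq (chr3:105959264-105959463, minus strand), and Ndufs8 an iron-sulfur subunit of complex I (chr19:3912775-3912974, minus strand).
Ndufs5: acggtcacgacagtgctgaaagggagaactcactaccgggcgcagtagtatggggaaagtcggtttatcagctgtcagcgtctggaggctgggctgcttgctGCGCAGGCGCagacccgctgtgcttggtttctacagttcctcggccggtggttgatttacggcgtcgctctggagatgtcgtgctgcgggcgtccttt
Sdhd: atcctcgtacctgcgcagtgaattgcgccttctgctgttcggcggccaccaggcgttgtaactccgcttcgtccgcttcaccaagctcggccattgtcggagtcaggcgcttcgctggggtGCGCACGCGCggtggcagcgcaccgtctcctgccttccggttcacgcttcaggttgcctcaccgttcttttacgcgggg
Atp5f1: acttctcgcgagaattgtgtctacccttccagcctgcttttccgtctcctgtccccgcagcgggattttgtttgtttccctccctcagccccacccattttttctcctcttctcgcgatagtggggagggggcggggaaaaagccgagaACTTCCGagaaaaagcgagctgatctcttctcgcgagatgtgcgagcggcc
Ndufs8: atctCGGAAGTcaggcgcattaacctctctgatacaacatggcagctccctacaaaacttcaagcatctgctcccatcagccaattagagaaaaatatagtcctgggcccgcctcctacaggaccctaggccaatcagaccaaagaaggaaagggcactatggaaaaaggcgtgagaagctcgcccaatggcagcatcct

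The 83 genes together took 1.76% ± 0.333 of the normalized level of all genes in WT-GFP astrocytes (n = 7), 1.70% ± 0.134 in APP-GFP (n = 4), 1.71% ± 0.145 in APP-SOCS3 (n = 5) and 1.05% ± 0.107 in GFP- cells (n = 3). The lowest WT-GFP sample was at 1.21% and the highest GFP- sample at 1.12%, so these groups did not overlap in this share (2-sided exact permutation test of the summed share, *p* = 0.0167, adjusted *p* = 0.1 over 24 such tests). In bulk samples, a lower level can mean fewer cells of a type or less RNA per cell, and these cannot be told apart.

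**Figure D1:**
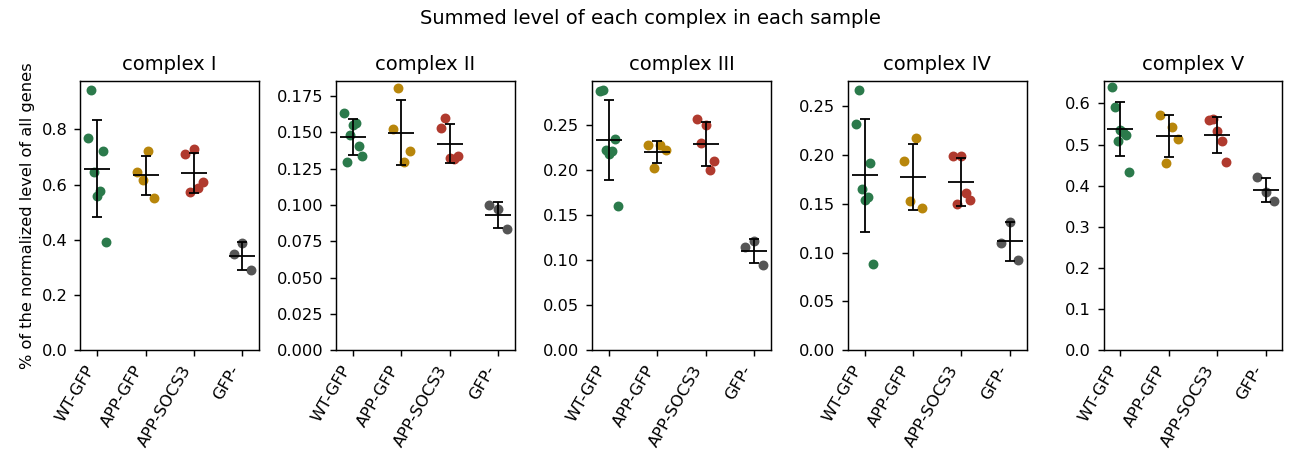
Summed level of the subunits of each complex as a percentage of the level of all genes in each sample (points), with mean and SD per group (bars). The GFP+ groups overlap in every panel, and GFP- samples lie below all WT-GFP samples for complexes I, II, III and V.

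By complex, the summed share differed between WT-GFP astrocytes and GFP- cells by a ratio of 1.93 for complex I, 1.57 for complex II, 2.12 for complex III, 1.61 for complex IV and 1.38 for complex V. Complex III took 0.234% ± 0.0447 against 0.110% ± 0.0137, and complex V took 0.537% ± 0.0652 against 0.389% ± 0.0296. The smallest *p* that the exact test allows with 7 against 3 samples, 0.00833, was reached for complexes II, III and V (adjusted *p* = 0.0667). It was 0.025 for complex I (adjusted *p* = 0.12) and 0.0833 for complex IV (adjusted *p* = 0.333), where the groups overlapped. Among the GFP+ groups, no difference in these shares passed the test, with exact permutation *p* from 0.484 to 0.982.

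Per kilobase of transcript, the member with the highest level in WT-GFP astrocytes was Atp5b, the catalytic beta subunit of ATP synthase, at 23400 ± 3795 normalized reads per kilobase (n = 7). In the other complexes, the highest levels per kilobase were those of Ndufc2 in complex I (19141 ± 7637), Cox8a in complex IV (15430 ± 5556), Uqcr11 in complex III (12764 ± 6170) and Sdhb in complex II (7551 ± 1961). The spread of Ndufc2 reaches both neighbours in this order, Atp5b and Cox8a. At the other end, Cox8c, a testis isoform, had no read in any of the 19 samples, and the other tissue-restricted isoforms were far below their common counterparts.

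WT-GFP samples were not alike. Taken over the 73 members whose WT-GFP mean reached 1000, replicate 7 lay under the mean of the other WT-GFP samples for 72 members, and replicate 2 for 5. The median log2 deviation of the members was -0.96 in replicate 7 and 0.74 in replicate 2, and lay between -0.21 and 0.24 in every sample of APP mice (75 members at 500 or more). In GFP- replicates 1 to 3 it was -0.90, -0.79 and -1.08, so that replicate 7 lay inside the GFP- range by this measure. For complex IV, replicate 7, at -1.10, lay below all GFP- samples. Among WT-GFP samples, the median SD of log2 levels was 0.557 for members at this level and 0.431 for all 3901 genes at this level. The least variable members above 0 were Atp5a1 (SD 0.161) and Atp5b (SD 0.223), the alpha and beta subunits of the ATP synthase head, followed by the complex III subunits Uqcrfs1, Uqcrc1 and Cyc1 (SD 0.239 to 0.260).

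**Figure D2:**
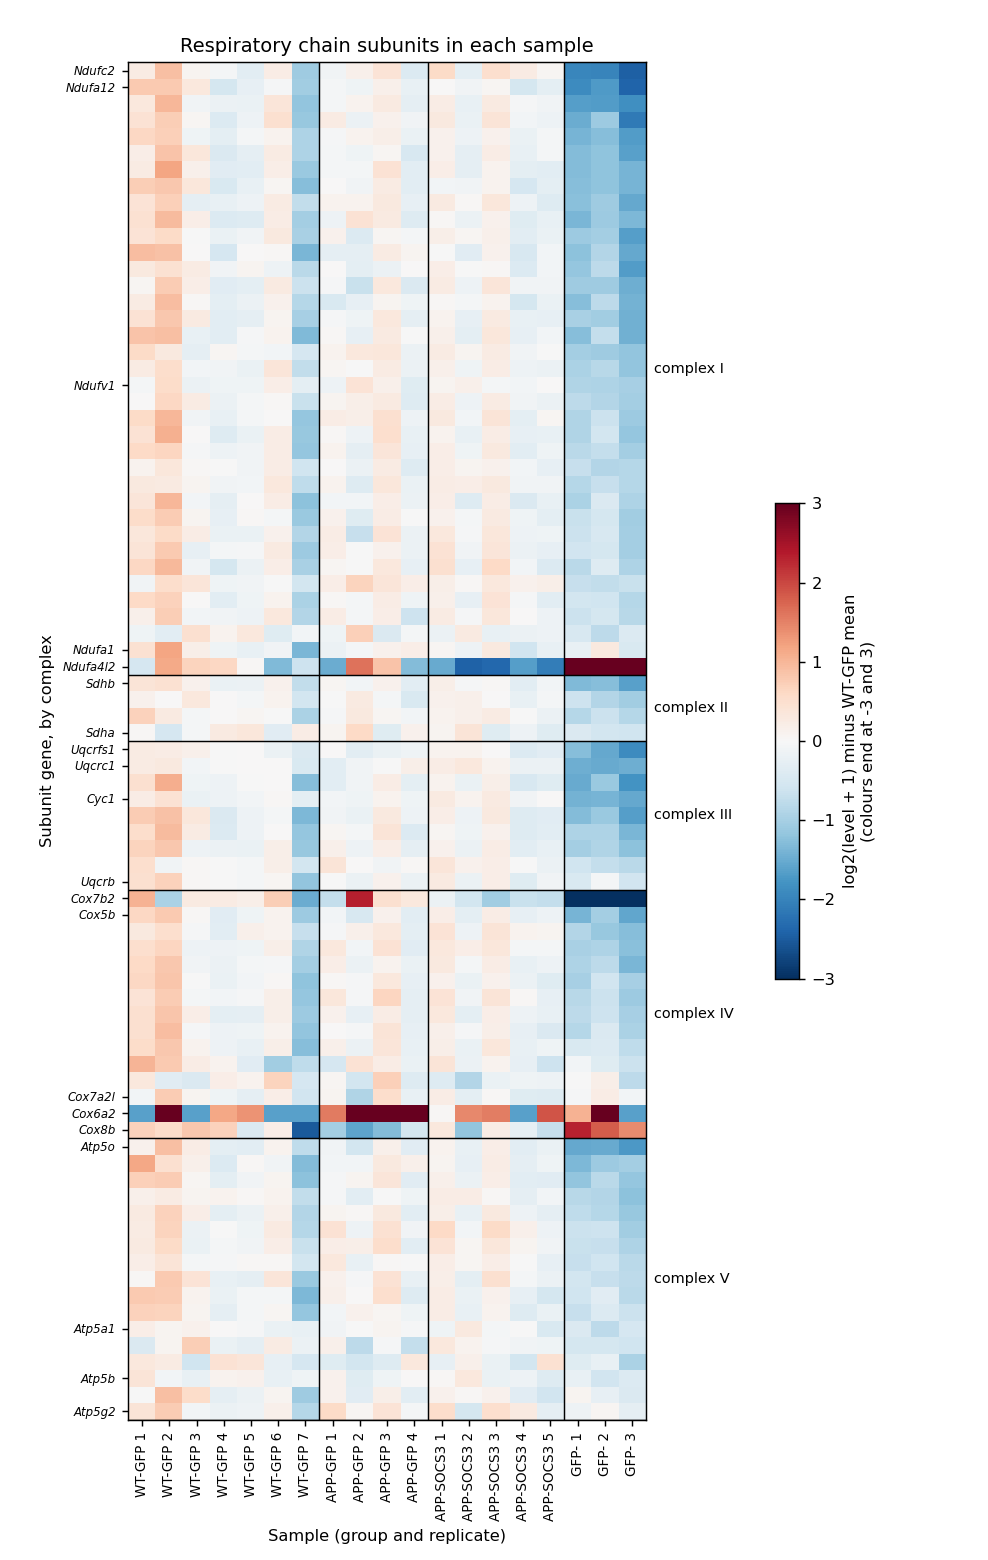
Level of 82 subunits (rows, by complex, with some genes named at the left; Cox8c, at 0 throughout, is left out) in the 19 samples (columns), as log2(level + 1) minus the mean of the 7 WT-GFP samples, in colour. GFP- columns are blue for most rows. WT-GFP replicate 7 is also blue, at -0.96 in the median member, and WT-GFP replicate 2 is light red, at 0.74. The darkest cells among GFP+ samples are those of the low-level isoforms Ndufa4l2, Cox7b2, Cox6a2 and Cox8b.

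The comparison of GFP+ astrocytes with GFP- cells of WT-GFP mice asks how the chain is expressed in transduced astrocytes relative to a mixture. The GFP- cells hold other astrocytes and, by their markers, vascular cells too. Most subunits were higher in astrocytes. Of 82 members tested, 57 were called higher, by limma with *p* no higher than 0.05 before adjustment and 1.5-fold or more, 1 was called lower and 24 were not called. Over all 26709 genes tested, 9.25% were called higher and 33.5% lower. With a Benjamini-Hochberg adjusted *p* under 0.05, 42 members were higher and 1 lower, against 7.38% and 24.5% of all genes. The median log2 fold change was 0.87 for members, -1.31 for all genes tested and -0.22 for 5568 genes whose mean reached 1000 in one of the groups. All WT-GFP samples lay above all GFP- samples for 32 members, and below them for 2 (7.57% and 27.2% of all genes).

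The counts moved with scaling and samples. After scaling to equal upper quartiles, 25 members were called higher and 2 lower, with a median of 0.40, while edgeR on whole reads called 72 higher and 1 lower, with a median of 1.22. The median of all genes moved likewise, to -1.74 and -0.37. Of genes described below, Ndufv1, Ndufs3, Ndufs8, Sdhc, Sdhd, Cox5a, Cox7c, Cox7b, Cox8a, Cox6b1, Cox7a2, Ndufa4 and Atp5g3 lost their call with equal upper quartiles, and Sdhc, Cox8a, Cox6b1, Cox7a2, Ndufa4 and Atp5g3 also among libraries with at least 20000 genes detected. Rescaling shifts all genes of a sample nearly alike, so the gap between the medians of members and all genes can hardly move with it. On the log2 scale this gap was 2.14 to 2.19 under the scalings, 1.59 with edgeR and 1.67 with DESeq2. It was 1.61 among genes whose mean reached 100 in one of the groups. With the 4 WT-GFP samples that had at least 20000 genes detected, 40 members were called higher and 2 lower, with a median of 0.64.

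**Figure D3:**
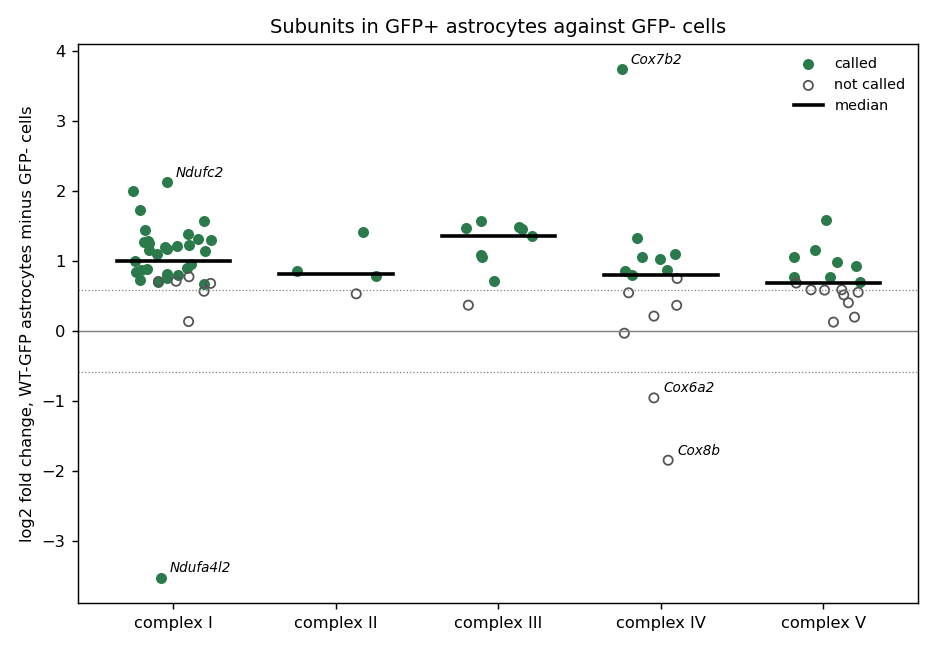
The log2 fold change of each of 82 subunits in WT-GFP astrocytes (n = 7) minus GFP- cells (n = 3), by complex, with filled points for genes called with limma, black lines for medians and dotted lines at a 1.5-fold change. The median is highest for complex III at 1.36 and lowest for complex V at 0.68, and Ndufa4l2 stands alone as called lower.

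Complex III, which passes electrons from ubiquinol to cytochrome c, had the highest median, 1.36, and 8 of its 9 members were called higher. Its 3 leading genes had the smallest *p* of all members. Uqcrc1 (chr9:108936648-108949644), a core protein, ranged from 8713 to 14852 with a median of 12094 in WT-GFP astrocytes and was at 4359, 4225 and 4337 in GFP- replicates 1 to 3. Its log2 fold change was 1.48 ± 0.160 (limma, adjusted *p* = 4.69e-05). Uqcrfs1 (chr13:30540312-30545327), the Rieske iron-sulfur protein, ranged from 8105 to 12831 with a median of 10933, against 4471, 3768 and 2921 in GFP- cells. Its log2 fold change was 1.57 ± 0.182 (adjusted *p* = 7.81e-05). Cyc1 (chr15:76343521-76345934), cytochrome c1, ranged from 5875 to 9717 with a median of 6793, against 2680, 2702 and 2459. In none of these did the groups overlap, and each kept its call in all 22 alternatives tried. Uqcrc2, the other core protein, differed less, at 7361 ± 1595 against 4416 ± 312 (log2 fold change 0.71 ± 0.194, adjusted *p* = 0.0181), and lost its call after scaling to equal totals or upper quartiles. Uqcrb, the ubiquinone-binding protein, was not called, at 0.36 ± 0.338.

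Complex I, the entry point for NADH, had 30 of 37 members called higher and 1 lower, with a median of 0.99. Ndufc2 (chr7:97400003-97407799), an accessory subunit of the membrane arm, ranged from 4920 to 19252 with a median of 10860 in astrocytes, against 2668, 2609 and 1894 in GFP- cells. Its log2 fold change, 2.12 ± 0.334 (adjusted *p* = 0.000714), was the largest in complexes I, II, III and V. Ndufa12, another accessory subunit, was at 2929 ± 1293 against 686 ± 161 (1.99 ± 0.387, adjusted *p* = 0.00279). Even the lowest astrocyte sample of both genes lay above all GFP- samples.

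The core subunits of complex I that carry electrons or surround the redox path had a median of 0.95. Ndufv1, which binds the flavin that accepts electrons from NADH, was at 8785 ± 1954 against 4458 ± 149 (0.95 ± 0.180, adjusted *p* = 0.00232). Ndufs7, an iron-sulfur subunit near the quinone site, was at 7810 ± 2636 against 3275 ± 488 (1.20 ± 0.271, adjusted *p* = 0.00676). Ndufv2, Ndufs3 and Ndufs8 were also called higher, at 1.21, 0.90 and 0.99. Ndufs1, the largest of the iron-sulfur subunits, was not called, at 4283 against 2857 and a log2 fold change of 0.56, under the 1.5-fold limit (adjusted *p* = 0.0586). Ndufa1 was close to equal, at 1548 against 1288 (0.13 ± 0.439, 95% interval -0.84 to 1.1).

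In complex II, which links the citric acid cycle to the chain, Sdhb (chr4:140961271-140979197), the iron-sulfur subunit, ranged from 5033 to 11495 with a median of 9102, against 3355, 3429 and 2717 in GFP- cells (1.41 ± 0.239, adjusted *p* = 0.00119). The membrane anchors Sdhd and Sdhc were called higher too, at 0.85 and 0.78, Sdhc not without GFP- replicate 1 or 3. Sdha, the flavoprotein that oxidises succinate, was at 14808 ± 3088 against 10089 ± 562 and stayed under the fold limit (0.53 ± 0.188, adjusted *p* = 0.0529).

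In complex IV, cytochrome c oxidase, 8 of 15 members tested were called higher and none lower. The core nuclear subunits Cox5b, Cox7c and Cox5a were called higher, at 1.32 ± 0.353, 1.1 ± 0.275 and 1.05 ± 0.293 (adjusted *p* = 0.0164, 0.0114 and 0.0191). Cox6c was not, at 5302 ± 2123 against 3373 ± 420 (0.54 ± 0.365). Of the 7 common members of isoform pairs, Cox7b, Cox6b1, Cox8a, Cox7a2 and Ndufa4 were called higher, at 0.75 to 1.03, and only Cox7b had an adjusted *p* under 0.05 (0.0415). These calls rested on few samples: Ndufa4 kept its call in 8 of 22 alternatives, Cox7a2 in 11, Cox6b1 in 13, Cox8a in 18 and Cox7b in 20, and all 5 lost it without GFP- replicate 3. Cox6a1 was not called, at 0.75 ± 0.356 (exact permutation *p* = 0.1). Cox7a2l was at 1812 ± 581 in astrocytes and 1796 ± 211 in GFP- cells (-0.04 ± 0.261, 95% interval -0.61 to 0.54).

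Complex V had the lowest median, 0.68, with 8 of 17 members called higher. Its largest difference was that of Atp5o, the stalk subunit that confers sensitivity to oligomycin, which ranged from 5118 to 16183 with a median of 9358, against 2991, 3040 and 2624 (1.59 ± 0.290, adjusted *p* = 0.00192). The head subunits were closer. Atp5a1 was at 23460 ± 2585 against 15694 ± 1865, with no overlap, and its log2 fold change of 0.58 ± 0.129 fell just under the fold limit (adjusted *p* = 0.00625). Atp5b was at 44834 ± 7272 against 33830 ± 4303 (0.40 ± 0.148, adjusted *p* = 0.0614). The central stalk subunit Atp5c1 was called higher, at 0.70 ± 0.178 (adjusted *p* = 0.0126), and lost its call after scaling to equal totals or upper quartiles and among libraries with at least 20000 genes detected.

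The 3 genes for the c subunit of the ATP synthase rotor encode the same mature protein with different import sequences. Atp5g3 was called higher, at 4893 against 2766 (0.77 ± 0.279, adjusted *p* = 0.0557), but not without GFP- replicate 3. Atp5g1, at 1784 against 1458, and Atp5g2, at 976 against 856, differed by 0.19 ± 0.362 and 0.12 ± 0.313 and were not called. Whether the 3 genes differ from each other in this respect was not tested.

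Of 6 tissue-restricted isoforms tested, 1 was called higher in astrocytes and 1 lower. Ndufa4l2 (chr10:127514939-127517152), a paralog of Ndufa4 known to be induced by hypoxia and to be found in pericytes, was the member called lower in astrocytes. It ranged from 5.18 to 32.9 with a median of 14.7 in WT-GFP astrocytes and was at 126, 222 and 198 in GFP- cells, without overlap (-3.53 ± 0.782, adjusted *p* = 0.00605). It kept this call in all 22 alternatives. Cox7b2 (chr5:71442824-71503525), a testis isoform, went the other way, with 24.8 to 148 and a median of 85.6 in astrocytes against 6.53, 6.81 and 1.77 in GFP- cells (3.73 ± 0.818, adjusted *p* = 0.00566). Cox8b, a muscle isoform, lay at 4.51 to 54.1 in astrocytes and at 156, 110 and 84.0 in GFP- cells without overlap, but narrowly missed the call (-1.85 ± 0.841, 95% interval -3.70 to 0.00, exact permutation *p* = 0.0417). Cox6b2, Cox7a1 and Cox6a2 were not called.

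**Figure D4:**
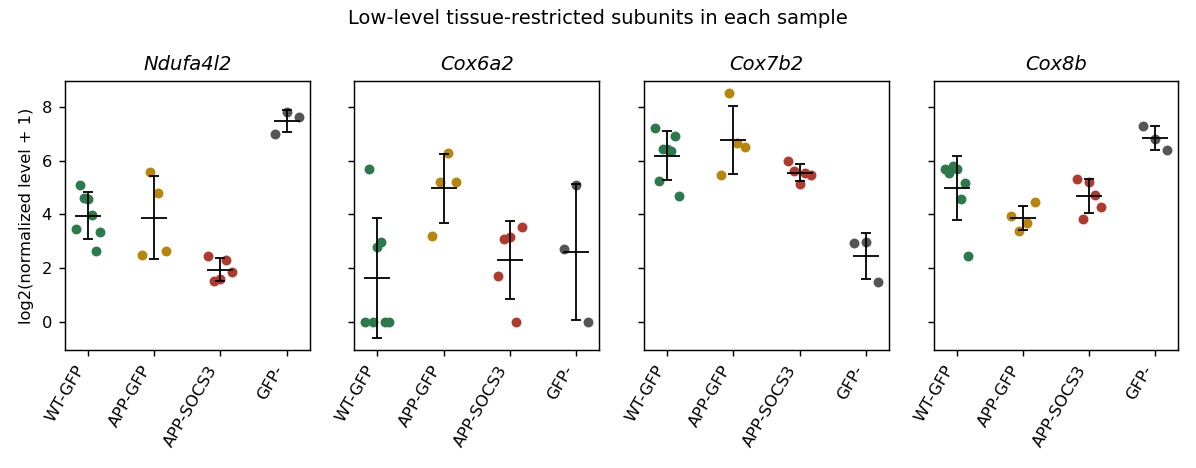
Levels of 4 low-level isoforms as log2(level + 1) in each sample (points), with mean and SD per group (bars). Ndufa4l2 and Cox8b are highest in the 3 GFP- samples, Cox7b2 is lowest there, and Ndufa4l2 is lower in all 5 APP-SOCS3 samples than in all APP-GFP and WT-GFP samples.

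Subunits that the symbol rule does not reach were read from a separate list. Of 6 tested, Cycs, the electron carrier cytochrome c, was called higher in astrocytes at 7631 ± 2268 against 3074 ± 549 (1.26 ± 0.285, adjusted *p* = 0.0068), as were the complex I acyl carrier Ndufab1 and Cox4i1. Cox4i2, the isoform known from lung and from hypoxia, was called lower, at 106 ± 96.8 against 551 ± 112 (-2.78 ± 0.694, adjusted *p* = 0.0116). Ndufa4l2 and Cox4i2 thus differed in the direction opposite to their counterparts Ndufa4 and Cox4i1.

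Factors that build the complexes were counted by complex. For complex I, 5 of 13 assembly factors were called higher and none lower, led by Foxred1 (1.38 ± 0.210), Ndufaf6 (1.13 ± 0.294) and Ndufaf4 (0.94 ± 0.265). For complex IV, 7 of 21 were called higher and 1 lower, led by the haem A enzyme Cox10, at 2464 ± 534 against 610 ± 154 (2.02 ± 0.241, adjusted *p* = 9.77e-05), Surf1 (1.09 ± 0.220) and Cox14 (1.12 ± 0.328). For complex V, 1 of 3 was called higher. None of 4 factors for complex II and 6 for complex III was called, with medians of 0.37 and 0.65. No adjusted or unadjusted *p* under 0.05 was found among these 10 genes.

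Enzymes of the citric acid cycle and pyruvate dehydrogenase, which supply NADH and succinate, had a median of 0.85, with 11 of 17 called higher and 1 lower. Idh2 was at 12908 ± 2030 against 5248 ± 169 (1.28 ± 0.158), and Suclg1 at 10662 ± 2463 against 3311 ± 543 (1.67 ± 0.208). Regulators of mitochondrial biogenesis were mostly lower, with a negative log2 fold change in 12 of 14 entries and a median of -1.46. Of these 14 entries, 2 were called higher and 3 lower. Ppargc1a, a coactivator of respiratory genes, was higher, at 1435 ± 683 against 487 ± 162 (1.43 ± 0.465, adjusted *p* = 0.0367), and its relative Ppargc1b was lower, at 11.3 ± 22.4 against 257 ± 34.6 (-6.32 ± 1.42, adjusted *p* = 0.00645). Polrmt, the RNA polymerase of mitochondria, was higher, at 0.69 ± 0.217. Cytosolic ribosomal protein genes, which are also short and abundant, had a median of -0.52, with 1 of 71 called higher and 15 lower.

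The subunits encoded in mitochondrial DNA carry no symbol in the file. By position on chrM, 13 entries were found, of which 8 cover at least 90% of 1 or more subunit genes. Some overlap each other, and reads from either strand cannot be told apart. The entry of mt-Co1 (chrM:5325-6941), the catalytic core of complex IV, was at 163493 ± 85905 in WT-GFP astrocytes (n = 7) and 106566 ± 28804 in GFP- cells (n = 3), a log2 fold change of 0.50 ± 0.389 (2-sided exact permutation *p* = 0.317). Of the 8 entries none was called higher and 1 was called lower, an entry of mt-Nd3 (chrM:9459-9804), at 672 ± 296 against 1588 ± 460 (-1.32 ± 0.394, adjusted *p* = 0.0262). A longer entry that also covers mt-Nd3 (chrM:9203-9888) was not called, at -0.43 ± 0.328. The median of the 8 entries was 0.30. Whether nuclear and mitochondrial subunits differ in this respect was not tested.

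Transcript length was set beside these values. Among 75 members with a transcript model and a mean level of 500 or more over all samples, the median log2 fold change was 1.02 for the 48 with a transcript under 1 kb, 0.90 for 21 of 1 to 2 kb and 0.57 for 6 above 2 kb. Among 6015 genes selected likewise, the medians were 0.50, 0.32 and -0.36. The Spearman correlation of length with log2 fold change was -0.11 for these members and -0.32 for these genes. The part of length in the result was not tested.

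The comparison of APP-GFP with WT-GFP astrocytes asks whether amyloid accumulation changes these mRNAs. No common shift was detected. Of 82 members tested, 1 was called higher and none lower, against 1.66% and 0.57% of all 22969 genes. The median log2 fold change was 0.00 for members and 0.09 for all genes. The median of members moved in both directions with samples and settings. It was 0.29 among libraries with at least 20000 genes detected (0.02 for all genes) and 0.20 with samples weighted by quality (0.02). With replicate numbers as a block it was -0.26 (0.20), and without WT-GFP replicate 7 -0.17 (0.12). No member had an adjusted *p* under 0.05, and the member called was also the only one with an unadjusted *p* under 0.05 with limma. Neither edgeR nor DESeq2 called any. Complex medians lay between -0.06 and 0.02. For all 74 members whose mean reached 1000 in one of the groups, the 95% interval of the difference stayed within a 2-fold change, reaching at most from -0.86 to 0.89.

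Subunits of complexes I, II, III and V described above showed this member by member. Uqcrc1 was at 9656, 11284, 11967 and 13564 in APP-GFP replicates 1 to 4, inside the WT-GFP range of 8713 to 14852. Sdhb was at 8671, 7897, 9091 and 6750, inside 5033 to 11495, and Ndufc2 at 9554, 11434, 13587 and 7774, inside 4920 to 19252. Atp5b was at 48589, 34460, 40856 and 44608, with 1 sample under the lowest WT-GFP sample at 38151. After Cox6a2, the smallest *p* belonged to Ndufv3, an accessory subunit near the flavin site, at 3244 against 2580 (0.35 ± 0.207, exact permutation *p* = 0.121).

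The member called was Cox6a2 (chr7:128205436-128206366), the complex IV isoform of heart and skeletal muscle. It was at 8.15, 36.1, 76.2 and 35.7 in APP-GFP samples and at 0 in 4 WT-GFP samples, with 5.90, 6.92 and 49.96 in the others. Its log2 fold change was 3.33 ± 1.30 (*p* = 0.0236, adjusted *p* = 0.999, limma), with overlap between the groups and an exact permutation *p* of 0.0394, and the call was lost with edgeR, with DESeq2, with replicate numbers as a block and without APP-GFP replicate 3 or 4. Its common counterpart Cox6a1 was not called. Neuronal markers had a median log2 fold change of 0.89 in this comparison with none of 11 called, and their summed level was 819 to 1315 in APP-GFP and 448 to 1567 in WT-GFP. Microglial markers were positive in 12 of 12 (median 0.72, 1 called higher), perivascular macrophage markers in 5 of 5 tested (median 2.31, none called), oligodendrocyte precursor markers in 5 of 6 (median 0.81, none called) and oligodendrocyte markers in 6 of 7 (median 0.40, none called). Endothelial markers were positive in 5 of 12 (median -0.03), mural in 4 of 10 (median -0.07) and astrocyte markers in 6 of 12, with none called. The part of other cells in the result was not tested.

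The comparison of APP-SOCS3 with APP-GFP astrocytes asks what inhibition of the JAK-STAT3 pathway changes in the model. Here too no common shift was detected. Of 82 members, none was called higher and 1 lower, against 2.33% and 3.37% of 22844 genes, and none had an adjusted *p* under 0.05. The median log2 fold change was -0.03 for members and 0.08 for all genes. The 95% intervals of the 74 members at a level of at least 1000 lay within a 2-fold change, and for 66 of them within a 1.5-fold change. Uqcrc1 was at 14037, 14989, 12976, 10701 and 10691 in APP-SOCS3 replicates 1 to 5, and Ndufc2 at 15200, 8355, 14513, 12180 and 10778. Both overlapped with the APP-GFP samples.

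**Figure D5:**
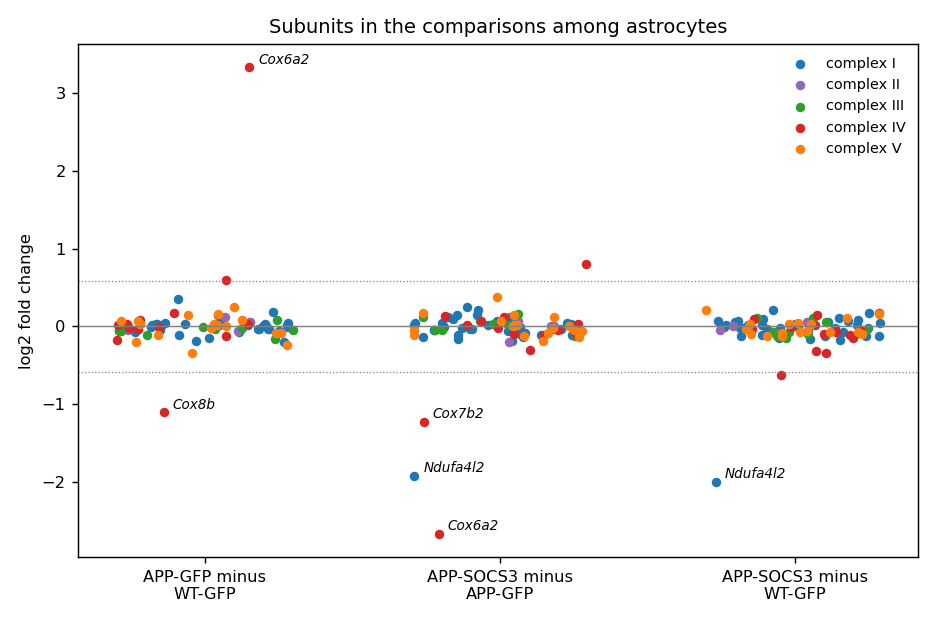
The log2 fold change of each subunit in the 3 comparisons among GFP+ astrocytes (limma, log2(level + 1)), coloured by complex, with dotted lines at a 1.5-fold change. Nearly all points lie inside the dotted lines, and the named exceptions are the low-level isoforms Cox6a2, Ndufa4l2, Cox7b2 and Cox8b.

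The exceptions were again low-level isoforms. Cox6a2 was called lower, at 2.21, 7.44, 8, 0 and 10.55 in APP-SOCS3 samples (-2.68 ± 1.07, *p* = 0.0290, adjusted *p* = 0.724, exact permutation *p* = 0.0317). The call was lost without APP-GFP replicate 3 or 4 or APP-SOCS3 replicate 1 or 4, with a pseudocount of 0.1 and with all 19 samples in 1 fit. This comparison shares its APP-GFP samples with the one above. Ndufa4l2 was at 4.42, 1.86, 2.00, 3.92 and 2.64 in APP-SOCS3 and at 4.53, 46.5, 26.7 and 5.23 in APP-GFP samples, without overlap, but was not called by limma (-1.93 ± 0.986, *p* = 0.0763, exact permutation *p* = 0.00794, the smallest that this test allows). The level rests on 2 to 4 reads per APP-SOCS3 sample, and the closest samples held 4 (APP-SOCS3 replicate 1) and 5 reads (APP-GFP replicate 1). Of 82 members, Ndufa4l2 alone lay lower without overlap, against 1.09% of all genes. edgeR and DESeq2 on whole reads called it lower, and also Cox7b2, which was at 46.7 against 149 ± 145 (-1.23 ± 0.634, exact permutation *p* = 0.0397). Cox7b2 was at 43.4, 363, 99.9 and 88.9 in APP-GFP replicates 1 to 4, highest in replicate 2, which had under 20000 genes detected.

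APP-SOCS3 and WT-GFP astrocytes differ in genotype and in SOCS3, and their comparison reuses samples of both comparisons above. Of 81 members tested, none was called higher and 1 lower, against 3.19% and 2.02% of 22958 genes, and none had an adjusted *p* under 0.05. The member was Ndufa4l2, with every APP-SOCS3 sample (1.86 to 4.42) below every WT-GFP sample (5.18 to 32.9; -2.01 ± 0.743, *p* = 0.0172, adjusted *p* = 0.736, exact permutation *p* = 0.00379). Over all genes, 0.279% lay lower in APP-SOCS3 without overlap. Ndufa4l2 was not called among libraries with at least 20000 genes detected (-1.68).

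Markers of other cells moved with these values. In APP-SOCS3 against APP-GFP cells, all 12 microglial and all 12 endothelial markers were called lower, as were 4 of 10 mural and 4 of 11 neuronal markers tested. The summed level of the mural list was 2660 to 4254 in APP-SOCS3, 4486 to 22189 in APP-GFP, 3874 to 33903 in WT-GFP and 135267 to 178106 in GFP- cells, and that of the endothelial list 1696 to 7897, 7278 to 39479, 5014 to 44566 and 155949 to 248677. No mural or endothelial marker was at 0 in a whole group. Neuronal markers summed to 235 to 1104 in APP-SOCS3. Of the other lists, 4 of 6 perivascular macrophage, 3 of 6 oligodendrocyte precursor, 1 of 7 oligodendrocyte and 1 of 12 astrocyte markers were called lower. In APP-SOCS3 against WT-GFP cells, 9 of 12 microglial, 9 of 12 endothelial, 4 of 10 mural, 1 of 6 oligodendrocyte precursor, 1 of 6 oligodendrocyte and 1 of 12 astrocyte markers were called lower, and no neuronal or perivascular macrophage marker was. The part of these cells in the values of Ndufa4l2, Cox6a2 and Cox7b2 was not tested.

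The other lists gave few calls among astrocytes. No subunit outside the symbol rule, no citric acid cycle enzyme, no assembly factor of complexes I, III, IV or V and no mitochondrial entry with a subunit was called in any of the 3 comparisons. Polrmt was called lower in APP-GFP against WT-GFP cells (-0.76 ± 0.301, exact permutation *p* = 0.0121, adjusted *p* = 0.999 with limma). It was called higher in APP-SOCS3 against APP-GFP cells (0.96 ± 0.313, exact permutation *p* = 0.00794, adjusted *p* = 0.641 with limma), a comparison that shares the APP-GFP samples. Sdhaf3, an assembly factor of complex II, was called higher in APP-SOCS3 against APP-GFP cells, at 371 against 221 (0.77 ± 0.348, exact permutation *p* = 0.0635, adjusted *p* = 0.795 with limma).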

How the data were processed

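RNAseq values of all 19 samples were used. The authors mapped reads to mm10 with STAR 2.4.0, counted them on constitutive regions of FAST DB genes and normalized with DESeq2. The deposited signal is the read count divided by 1 size factor per sample. All values came back to whole reads (100% within 0.01 reads). Strand use and the handling of reads matching several places are not stated in the sources used here, so members with processed copies are uncertain.

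Groups were taken from the labels. Genes whose mean reached 10 in one of the groups were compared on log2(level + 1) with limma 3.58.1 in R 4.3.3 (trend, both groups alone). On this scale, changes of low genes depend on the 1 that is added and on samples at 0. They can be smaller or larger than changes of mean levels. The log2 fold change of Cox6a2 in APP-GFP against WT-GFP cells ran from 1.52 to 5.23 over the 22 alternatives. Genes were called at *p* no higher than 0.05 before adjustment and a fold of 1.5 or more, a rule taken from the study's methods. For single values, means were compared with the exact permutation test (2-sided). The smallest possible *p* is 0.00833, 0.00303, 0.00794 and 0.00126 in the order of the report. edgeR 4.0.16 and DESeq2 1.42.0 on whole reads were alternatives. The limma fit was tested on simulated data. Depth was 19331876 to 32621917 reads per sample, and the levels of some isoforms rest on few reads.

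Named genes are the core subunits, the isoform groups, the 5 called members with the smallest *p* per direction, and up to 3 genes per pathway list, beside the members named for their position among others. Members and lists were chosen with earlier results of these data known. Positions of chrM genes and transcript lengths came from GENCODE M21. No promoter was used for 14 members. A few items are not reported here.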

Additional observations from a re-analysis of the deposited data

Results flagged for a closer look

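Of 138 sets of 4 to 7 samples examined for a single distant sample, 2 held one, where chance gives about 1 in 20. Cox6a2 was at 49.96 in WT-GFP replicate 2, far above the other 6 samples of that group, and Ndufs1 was at 5059 in APP-SOCS3 replicate 2, above the other 4.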

How the results depend on the processing

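Members called in astrocytes against GFP- cells numbered 58, and fell to 27 after scaling to equal upper quartiles and to 35 with a fold change of at least 2. Leaving out 1 replicate gave 43 to 69 (median log2 fold change 0.75 to 1.04), and 40 of the 58 kept their call throughout, with 69 called without WT-GFP replicate 7 and 43 without GFP- replicate 3. In APP-GFP against WT-GFP the count of 1 went to 0 with a minimum level of 100, edgeR, DESeq2, the replicate number as a block or an adjusted *p* under 0.05 (leaving out 1 replicate, 0 to 1, with 0 without APP-GFP replicate 3 or 4). In APP-SOCS3 against APP-GFP it went to 0 with a pseudocount of 0.1, a minimum level of 100 or an adjusted *p*, and to 3 with edgeR or DESeq2 (leaving out 1 replicate, 0 to 2, where 2 came from leaving out APP-GFP replicate 1, and 0 from leaving out replicate 3 or 4 of APP-GFP, or 1 or 4 of APP-SOCS3). Against WT-GFP it went to 0 with a minimum level of 100, an adjusted *p* or libraries with at least 20000 genes detected, a choice made after seeing the data, and stayed at 1 with any replicate left out. The causes were not tested. For these counts and medians of members, all other alternatives kept counts within 1.5 times and medians within 1 SD of the samples. That SD is the larger of the groups' SDs of sample medians. It is a wide limit where WT-GFP is compared, as its samples ran from -0.96 to 0.74. In APP-GFP against WT-GFP, medians from -0.26 (replicate number as a block) to 0.29 (libraries with at least 20000 genes detected) stayed inside it. Over all genes, the share of calls that were higher moved with scaling, from 2471 of 11419 to 1351 of 12449 (upper quartiles), 3323 of 8588 (edgeR) and 3173 of 8957 (DESeq2) in the first comparison, from 382 of 513 to 416 of 454, 412 of 659 and 205 of 530 in the second, from 532 of 1301 to 398 of 1323 (edgeR) in the third, and from 733 of 1197 to 1330 of 1588, 441 of 1203 and 340 of 1164 in the last.

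Same-numbered samples correlated at -0.0761 to 0.154 in their deviations from group means, over the 4 comparisons. For some numbers this lay above the best correlation with another number, and for others below it. Whether samples came from the same mice cannot be read from these values. With the replicate number as a block, members called were 70, 0, 1 and 1 in the 4 comparisons.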
